A study of Mus musculus with 22 samples.

Results

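Expression was followed for 6 neural lineage genes, given as a list of names, in every array: Pax6, Sox1 and Zic1, transcription factors of neural progenitors, Nes, the progenitor intermediate filament nestin, and Map2 and Tubb3, microtubule proteins of neurons. All 6 were among the 19938 genes tested, each with 1 probe set. They were measured in 22 samples of mouse pluripotent lines on Affymetrix gene arrays, 1 array per sample. Embryonic germ (EG) lines, which arise from primordial germ cells, came from embryos of embryonic day 8.5 and comprised 4 lines taken directly into 2i medium (EG 2i), 4 held for 2 days in fetal calf serum before 2i (EG 2is) and 4 kept in serum (EG FCS). Embryonic stem (ES) lines, which arise from the embryo before implantation, comprised 5 samples in 2i (ES 2i) and 5 in serum (ES FCS). The series text calls the embryos genetically identical and says that ES lines were switched between media, so an ES 2i and an ES FCS sample can come from 1 line.

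Every sample carries the same strain label, 129SvEv x Oct4-delta-PE-GFP transgenic on a mixed background, so that the germline reporter is shared by all groups. 2i medium was serum-free N2B27 supplemented with PD0325901, which inhibits MEK, with CHIR99021, which inhibits GSK3, and with leukaemia inhibitory factor (LIF), over a laminin coat. Serum medium also held LIF, with the cells on mouse embryonic fibroblast feeders, so medium and feeder layer changed together and cannot be told apart. The cell-type label reads EGCs in 10 of the 10 samples whose titles and source names say ES, and titles were followed. Females were 3 of 4 EG 2i lines, 2 of 4 EG 2is lines, 1 of 4 EG FCS lines and 2 of 5 in each ES group, and 6 ES arrays (3 per culture) formed a second labelled batch.

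As background, mouse pluripotent cells enter the neural lineage when FGF and ERK signalling acts and BMP and Wnt signals are low, and the inhibitors in 2i are used to hold that step back. Sox1 is the earliest of these genes to mark committed neuroectoderm, Pax6 marks radial glia and the eye field, and Zic1 acts in the dorsal neural tube. Nestin then fills the processes of dividing progenitors, and neurons replace it with Map2 in dendrites and the class III beta-tubulin Tubb3.

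Values are log2 RMA expression, and they ran from 3.63 to 13.88 over all probe sets. The Y-linked Eif2s3y, which female lines lack, read 4.61 to 4.88 in the 10 female arrays and at least 7.55 in the male arrays, which gives a level for signal without transcript. That upper value lay above the mean of 23.7% of genes. Map2, Tubb3 and Sox1 were above it in 22 of 22 arrays, Pax6 in 20, Zic1 in 19 and Nes in 18, and no member went past 6.86 in any array. Probe sets differ in their background, so this level is a rough guide, and RMA understates fold changes of genes near it. As a check of the labelled cell type, the pluripotency factors Pou5f1 and Sox2 read 11.38 to 11.70 and 11.30 to 11.84 across all arrays. Differences given here come from a limma fit of all 22 arrays with terms for batch and sex, and a gene is called at an adjusted p under 0.05.

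The 250 bases before the transcription start are shown for the pair of genes that fell in all 3 culture comparisons, Pax6 and Map2, and for Nes, whose culture differences ran in opposite directions in EG and ES lines (RefSeq, GRCm38.p6). Capitals mark GC boxes (GGGCGG, or CCGCCC on the other strand), CCAAT boxes (CCAAT or ATTGG) and TATA boxes (TATAAA or TTTATA).
Pax6, first of its 2 windows, chr2:105668646-105668895, plus strand: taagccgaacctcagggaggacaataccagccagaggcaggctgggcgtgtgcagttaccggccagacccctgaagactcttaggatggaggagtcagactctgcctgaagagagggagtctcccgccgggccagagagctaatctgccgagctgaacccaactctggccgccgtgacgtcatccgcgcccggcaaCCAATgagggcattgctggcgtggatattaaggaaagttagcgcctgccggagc
Map2, chr1:66175079-66175328, plus strand: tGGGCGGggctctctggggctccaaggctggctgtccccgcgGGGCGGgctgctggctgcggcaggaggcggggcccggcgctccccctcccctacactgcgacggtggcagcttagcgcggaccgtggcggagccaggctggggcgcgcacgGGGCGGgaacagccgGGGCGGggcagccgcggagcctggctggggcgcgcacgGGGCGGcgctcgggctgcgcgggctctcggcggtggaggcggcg
Nes, chr3:87970843-87971092, plus strand: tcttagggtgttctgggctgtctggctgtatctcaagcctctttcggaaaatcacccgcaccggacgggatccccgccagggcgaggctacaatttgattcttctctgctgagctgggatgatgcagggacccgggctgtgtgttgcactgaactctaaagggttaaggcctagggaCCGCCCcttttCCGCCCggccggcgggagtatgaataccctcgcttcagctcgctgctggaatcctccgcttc

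The Map2 window held 5 GC boxes and no CCAAT box (0 matches), and the Nes window 2 GC boxes and 0 CCAAT boxes. The first Pax6 window held 0 GC boxes and 1 CCAAT box, and the second, which is not shown, 0 of either. Among 32851 mouse promoter windows of the same length, 32.7% held a GC box and 33.8% a CCAAT box. The Map2 window had 34 CpG dinucleotides, against 15 each in the Pax6 and Nes windows and a median of 6 over all windows. A TATA box was found in 0 of the windows of all 6 genes and in 12.4% of all windows. These matches describe the letters of the windows only.

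Pax6 was lower in 2i in both kinds of line. It read 5.44, 5.30, 5.40 and 5.56 in the 4 EG 2i lines and 5.33, 5.23, 5.26 and 5.40 in the 4 EG 2is lines, against 5.96, 5.79, 5.96 and 6.21 in the 4 EG FCS lines. Each of the 8 EG lines in 2i was below each EG line in serum. It fell by 0.54 on the log2 scale in EG 2i lines (SE 0.14, 1.45-fold, adjusted p = 0.00677) and by 0.67 in EG 2is lines (SE 0.13, 1.59-fold, adjusted p = 8.13e-04).

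In ES 2i samples Pax6 read 5.06, 5.09, 5.06, 4.83 and 4.81, against 6.20, 5.94, 6.08, 6.45 and 6.73 in ES FCS samples. The groups did not overlap, and the lowest ES 2i samples were at the background level. Pax6 fell by 1.31 (SE 0.12, 95% interval −1.55 to −1.06, 2.48-fold, adjusted p = 8.9e-08), and it fell within each batch (−0.99 in batch 1, adjusted p = 2.57e-04, and −1.52 in batch 2, adjusted p = 0.00141). The order of its group means was 6.28 ± 0.31 in ES FCS, 5.98 ± 0.17 in EG FCS, 5.43 ± 0.11 in EG 2i, 5.30 ± 0.08 in EG 2is and 4.97 ± 0.14 in ES 2i (SD, n = 4 per EG group and 5 per ES group). Neighbours in that order that did not pass the test were the serum groups (−0.25 for EG FCS minus ES FCS, adjusted p = 0.999), the EG groups in 2i (0.13 for EG 2i minus EG 2is, adjusted p = 0.777) and the last pair (0.39 for EG 2is minus ES 2i, adjusted p = 0.389).

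Feeder fibroblast markers moved with culture. The mean of 21 such markers was 5.44 to 5.57 in EG 2i, 5.42 to 5.59 in EG 2is and 5.36 to 5.61 in ES 2i arrays, against 6.13 to 6.93 in EG FCS and 6.15 to 6.88 in ES FCS arrays. With this level added to the fit (called the feeder term here), chosen after the data were seen, Pax6 remained called in ES 2i against ES FCS (−0.97, adjusted p = 0.0106), while it was no longer called in EG 2i (−0.18, adjusted p = 0.746) or EG 2is lines (−0.31, adjusted p = 0.506). The level separates the cultures without overlap, and the standard errors are wider in that fit. In such bulk samples a smaller share of expressing cells and less RNA per cell cannot be told apart.

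**Figure D1:**
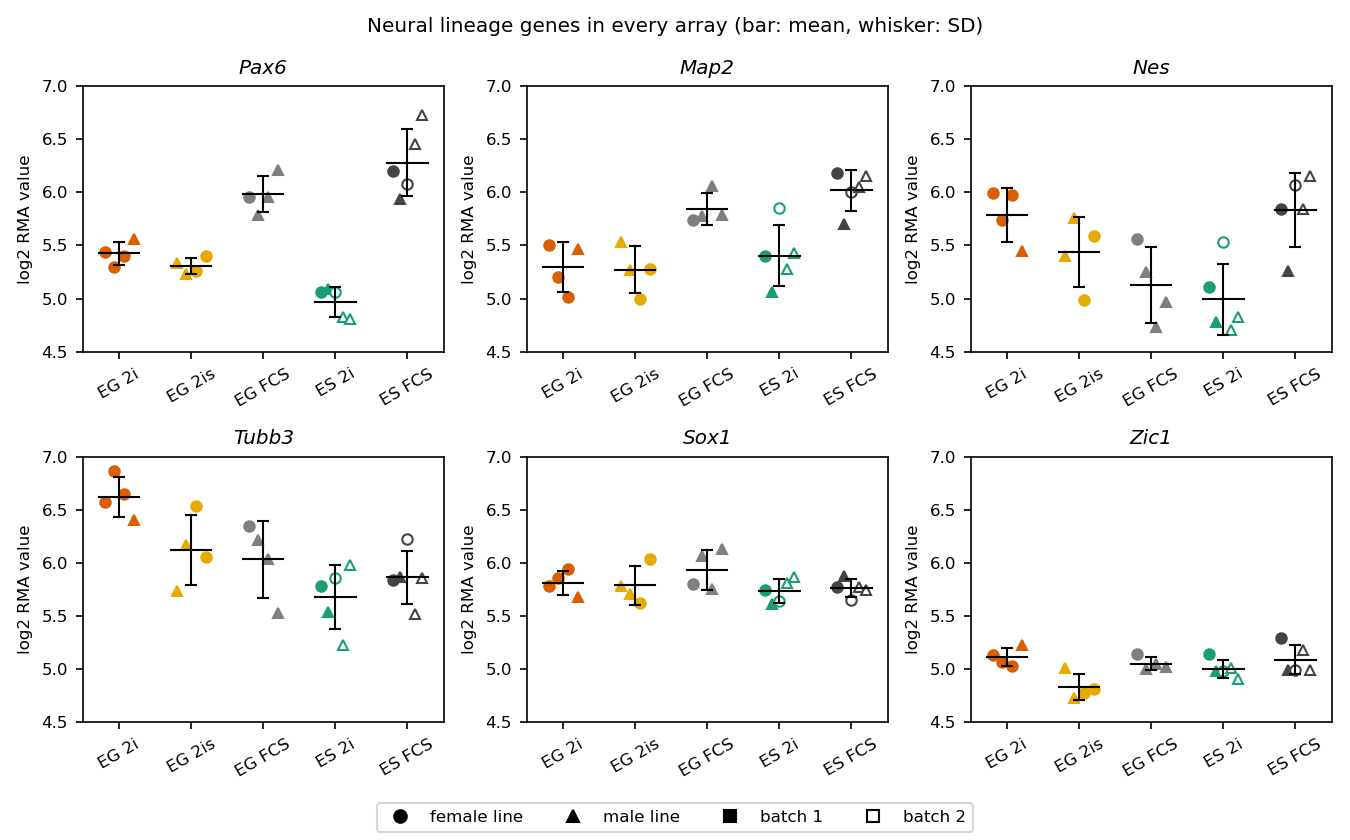
Log2 RMA expression (vertical axis) of the 6 neural genes in each of the 22 arrays, by group, 1 panel per gene; circles are female and triangles male lines, open symbols are batch 2 arrays, and the bar and whisker are the group mean and SD. Pax6 and Map2 sit lower in the groups in 2i than in their serum groups, Nes has its highest group means in EG 2i (5.79) and ES FCS (5.83), and Tubb3 has its highest in EG 2i (6.62).

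Map2, the dendritic microtubule-associated protein, followed Pax6 in direction. It read 5.5, 5.20, 5.01 and 5.47 in EG 2i lines and 5.53, 5.27, 5.00 and 5.28 in EG 2is lines, against 5.74, 5.78, 6.06 and 5.79 in EG FCS lines. Both EG groups in 2i were below every EG FCS line. Map2 fell by 0.56 in EG 2i (SE 0.15, adjusted p = 0.0105) and by 0.58 in EG 2is lines (SE 0.15, adjusted p = 0.00602).

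In ES 2i samples Map2 read 5.40, 5.06, 5.85, 5.28 and 5.43, against 6.18, 5.70, 6.0, 6.05 and 6.15 in ES FCS samples. The ES 2i sample numbered 3 (at 5.85) lay above the lowest ES FCS sample, so the groups overlapped. Map2 fell by 0.61 (SE 0.13, 1.53-fold, adjusted p = 0.00108), by 0.71 within batch 1 (adjusted p = 0.0351) and by 0.55 within batch 2 (adjusted p = 0.024). With the feeder term the differences were −0.43 in EG 2i (adjusted p = 0.443), −0.45 in EG 2is (adjusted p = 0.402) and −0.49 in ES 2i (adjusted p = 0.303), and none of these 3 was called.

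The fall of Map2 did not differ detectably between EG and ES lines: the EG difference minus the ES difference was 0.05 (adjusted p = 0.939). Its group means came in 2 sets. Serum groups were at 5.84 ± 0.15 (EG FCS) and 6.02 ± 0.19 (ES FCS), and groups in 2i were at 5.30 ± 0.23 (EG 2i), 5.27 ± 0.22 (EG 2is) and 5.40 ± 0.29 (ES 2i) (SD, n = 4 per EG group and 5 per ES group). Map2 passed no test between EG lines and ES lines held in one culture (−0.04 in serum, 0.01 for EG 2i and −0.01 for EG 2is in 2i).

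Nes did not follow Pax6 and Map2. It read 5.99, 5.74, 5.97 and 5.45 in EG 2i lines and 5.40, 5.76, 4.99 and 5.59 in EG 2is lines, against 5.56, 5.25, 4.73 and 4.97 in EG FCS lines. The highest EG FCS value, from the single female line of that group, lay above the lowest EG 2i value. EG 2i lines averaged 5.79 ± 0.25 and EG FCS lines 5.13 ± 0.36 (SD, n = 4 each), a fitted difference of 0.50 (95% interval 0.11 to 0.91, adjusted p = 0.0624) that was not called. Without the sex term it was 0.66 and called (adjusted p = 0.0249).

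In ES 2i samples Nes read 5.11, 4.78, 5.53, 4.70 and 4.83, against 5.84, 5.26, 6.07, 5.84 and 6.15 in ES FCS samples. Only number 3 in 2i (5.53) and number 2 in serum (5.26) overlapped. Nes fell by 0.84 in ES 2i (SE 0.16, 1.79-fold, adjusted p = 4.72e-04). It was called within batch 2 (−0.99, adjusted p = 0.00564) and not within batch 1, which had 2 samples per group (−0.61, adjusted p = 0.155). With the feeder term the difference was −0.97 (adjusted p = 0.0775), and in EG lines it was 0.37 in EG 2i (adjusted p = 0.635) and 0.09 in EG 2is (adjusted p = 0.92).

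The EG and ES responses of Nes differed from each other. The EG difference minus the ES difference was 1.34 (SE 0.25, 95% interval 0.82 to 1.87, adjusted p = 0.0144). The call ended with batch 1 arrays only (1.13, adjusted p = 0.3, with 0 genes called at all) and with EG 2is lines in place of EG 2i lines (1.07, adjusted p = 0.136), an alternative chosen after the data were seen. Between 2i groups Nes was higher in EG 2i than in ES 2i lines by 0.88 (SE 0.20, 1.84-fold, adjusted p = 0.0201), although the groups overlapped. That call ended without EG 2i line 3 (adjusted p = 0.0589) or ES 2i sample 1 (adjusted p = 0.0506) and with batch 1 arrays only (0.78, adjusted p = 0.115) or the groups compared alone (0.71, adjusted p = 0.0993). The order of its group means was 5.83 ± 0.35 in ES FCS, 5.79 ± 0.25 in EG 2i, 5.43 ± 0.33 in EG 2is, 5.13 ± 0.36 in EG FCS and 4.99 ± 0.34 in ES 2i (SD, n = 4 per EG group and 5 per ES group), and the EG groups next to each other passed no test (0.27 for EG 2i minus EG 2is, adjusted p = 0.627, and 0.23 for EG 2is minus EG FCS, adjusted p = 0.421). In serum the difference of EG FCS minus ES FCS was −0.46 (95% interval −0.88 to −0.04, adjusted p = 0.999).

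Nes was also among the more variable genes within each group. Its SD was larger than that of 86.8% to 97.1% of all genes, depending on the group, and Tubb3 reached 74.5% to 97.2% of genes.

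Tubb3, the neuronal beta-tubulin, had its highest group mean in EG 2i lines. It read 6.57, 6.86, 6.65 and 6.40 in EG 2i and 5.73, 6.17, 6.53 and 6.05 in EG 2is lines, against 6.35, 6.21, 6.04 and 5.53 in EG FCS lines. Every EG 2i line was above every EG FCS line, while EG 2is lines overlapped with both. The difference between EG 2i and EG FCS lines was 0.43 (95% interval 0.07 to 0.80, adjusted p = 0.0769) and was not called. Without the sex term it was 0.59 and called (adjusted p = 0.0313), and with the feeder term it was −0.14 (adjusted p = 0.841), while that of EG 2is was −0.56 (adjusted p = 0.278).

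Tubb3 read 5.78, 5.54, 5.86, 5.23 and 5.98 in ES 2i samples, against 5.84, 5.87, 6.22, 5.52 and 5.86 in ES FCS samples. These groups overlapped, and the difference of −0.18 had a 95% interval of −0.49 to 0.12 (adjusted p = 0.403). It was −0.73 with the feeder term (95% interval −1.37 to −0.10, adjusted p = 0.106). All 4 EG 2i lines lay above all 5 ES 2i samples. Tubb3 was higher in EG 2i than in ES 2i lines by 0.87 (SE 0.18, 1.83-fold, adjusted p = 0.0123) and by 0.89 within batch 1 (adjusted p = 0.0431). The call ended without ES 2i sample 1 (adjusted p = 0.0582) and with the groups compared alone (0.89, adjusted p = 0.133). Its group means were 6.62 ± 0.19 in EG 2i, 6.12 ± 0.33 in EG 2is, 6.03 ± 0.36 in EG FCS, 5.86 ± 0.25 in ES FCS and 5.68 ± 0.30 in ES 2i (SD, n = 4 per EG group and 5 per ES group), and no neighbours in this order passed the test (adjusted p = 0.372, 0.98, 0.999 and 0.403 down the order). The EG difference minus the ES difference, 0.62, was not called (adjusted p = 0.178).

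Sox1, which marks the entry into neuroectoderm, passed no test in any comparison. It read 5.78, 5.86, 5.94 and 5.68 in EG 2i and 5.78, 5.71, 5.62 and 6.04 in EG 2is lines, against 5.80, 6.06, 5.75 and 6.13 in EG FCS lines. It read 5.74, 5.61, 5.64, 5.81 and 5.87 in ES 2i samples, against 5.77, 5.88, 5.65, 5.77 and 5.74 in ES FCS samples. All groups overlapped, and the group means lay between 5.73 and 5.93. The 95% intervals for 2i minus serum were −0.33 to 0.11 in EG 2i, −0.35 to 0.07 in EG 2is and −0.21 to 0.16 in ES 2i, so a culture difference as large as that of Pax6 in ES lines lay outside each of them. With the feeder term the differences of Sox1 were −0.12, −0.15 and −0.04 (adjusted p = 0.791, 0.724 and 0.932).

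Zic1, the zinc-finger factor of the dorsal neural tube, read 5.13, 5.07, 5.03 and 5.23 in EG 2i and 5.01, 4.73, 4.77 and 4.81 in EG 2is lines, against 5.14, 5.00, 5.05 and 5.02 in EG FCS lines. EG 2is lines 2, 3 and 4 were at the background level. Zic1 fell by 0.23 in EG 2is lines (SE 0.08, adjusted p = 0.0369), with an overlap of 1 line. This call held in 10 of 19 alternatives. It ended without EG FCS line 1 (adjusted p = 0.141) or 3 (0.064) and without EG 2is line 2 (0.126), 3 (0.0898) or 4 (0.075). It also ended with the groups compared alone (adjusted p = 0.0923), with batch 1 arrays only (0.062), with the replicate number as a block within EG and within ES (−0.20, adjusted p = 0.0659) and with the feeder term (−0.11, adjusted p = 0.737). In EG 2i lines the difference was 0.06 (adjusted p = 0.672), and with the feeder term it was 0.18 (adjusted p = 0.566).

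In ES 2i samples Zic1 read 5.14, 4.98, 4.98, 5.01 and 4.91, against 5.29, 4.99, 4.99, 5.18 and 4.99 in ES FCS samples. The groups overlapped, and the difference was −0.09 (adjusted p = 0.393). Group means ran from 4.83 in EG 2is to 5.12 in EG 2i lines.

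**Figure D2:**
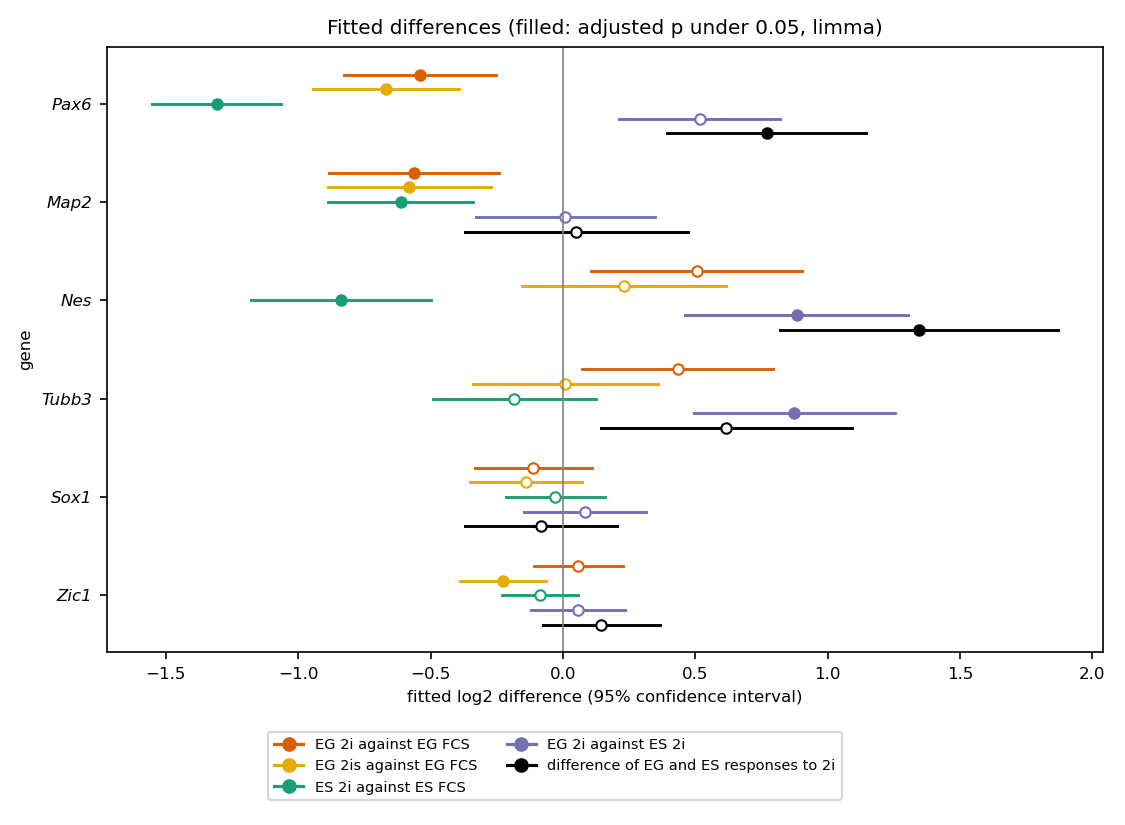
Log2 differences (horizontal axis, points) of the 6 neural genes with their 95% intervals from the limma fit, for the 3 culture comparisons, EG 2i against ES 2i and the difference of EG and ES responses; filled points are called at an adjusted p under 0.05. Pax6 and Map2 are below 0 and called in all 3 culture comparisons, and Nes is at 0.50 (not called) in EG 2i and at −0.84 (called) in ES 2i.

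Counted over the 6 genes, 2 fell and 0 rose in EG 2i against EG FCS, where 23.9% of all genes were called and 12.5% were called lower. In EG 2is against EG FCS 3 fell and 0 rose, where 25.6% of all genes were called and 12.9% called lower. In ES 2i against ES FCS 3 fell and 0 rose, where 31.6% of all genes were called and 14.9% called lower. Counts of 2 or 3 among 6 genes were read as nothing particular to them. With the feeder term the counts were 0, 0 and 1, where 14.9%, 16.5% and 18.3% of all genes were called.

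Pax6, Map2 and Tubb3 in EG 2i, Pax6 and Map2 in EG 2is and Pax6 in ES 2i were separated from their serum group without overlap, as were 24.2%, 24.5% and 22.2% of all genes in those 3 comparisons. The EG comparisons share the EG FCS lines. Between EG 2i and EG 2is lines limma called 0 of 6 members and 0 genes in all (0% called), while 2 members and 2116 genes had an unadjusted p under 0.05. Tubb3 (0.42, adjusted p = 0.372) and Zic1 (0.28, adjusted p = 0.211) were the 2 members, both higher in EG 2i, and Zic1 was one of the 4.31% of genes whose 2 groups did not overlap.

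Between EG and ES lines, 2 members (Nes and Tubb3) were higher in EG 2i than in ES 2i, where 3.72% of all genes were called, 1.2% higher and 2.52% lower. Tubb3 and Pax6 were without overlap there, as were 9.69% of all genes. Pax6, at 0.52 (95% interval 0.21 to 0.82), narrowly missed (adjusted p = 0.052). In the difference of EG and ES responses 2 members (Nes and Pax6) were called, where 1.44% of all genes were called and 0.567% were called higher. For Pax6 that difference was 0.77 (SE 0.18, adjusted p = 0.0402), meaning a smaller fall in EG than in ES lines, and the call held in 14 of 29 alternatives. It ended without any one of EG FCS lines 1, 2 or 3, EG 2i lines 1, 3 or 4, ES FCS samples 4 or 5, or ES 2i samples 4 or 5 (adjusted p = 0.0504 to 0.0884), and with batch 1 arrays only (0.43, adjusted p = 0.424).

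In EG 2is against ES 2i limma called 0 of 6 members and 9 genes (0.0451%), with 4 members and 1872 genes at an unadjusted p under 0.05, and Pax6 was without overlap, as were 3.3% of genes. In EG FCS against ES FCS it called 0 members and 2 genes (0.01%), with 1 member and 979 genes at an unadjusted p under 0.05, and no member was without overlap, against 2.77% of genes. Between female and male lines it called 0 members and 3.62% of all genes (2.31% higher), with 2 members and 4121 genes at an unadjusted p under 0.05. Those 2 members were Tubb3 (0.31, adjusted p = 0.104) and Nes (0.31, adjusted p = 0.144), both higher in female lines. Female lines were 3 of 4 in EG 2i and 1 of 4 in EG FCS, so sex and culture were partly mixed in EG lines. Without EG 2is line 3 the sex difference of Nes was 0.40 and called (adjusted p = 0.0376).

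Other genes of the neural lineage were read from lists grouped by role. Over all genes, 11.4%, 12.7% and 16.6% were called higher in EG 2i, EG 2is and ES 2i against serum, beside the shares called lower given above. Among neural progenitor transcription factors, 33 of 35 were measured, and 4 rose and 2 fell in EG 2i, 4 rose and 1 fell in EG 2is, and 4 rose and 5 fell in ES 2i, each against serum. En2, a midbrain and hindbrain homeobox gene, rose by 1.09 in EG 2i (SE 0.21, adjusted p = 7.20e-04), 0.88 in EG 2is (adjusted p = 0.00274) and 0.72 in ES 2i (adjusted p = 0.00379). Otx2, which patterns the forebrain and also acts in the primed epiblast, fell by 1.48 in EG 2i (adjusted p = 0.00728) and differed by −1.0 in EG 2is (adjusted p = 0.0525) and −0.70 in ES 2i (adjusted p = 0.114). Zic2, a relative of Zic1, rose by 1.14 in EG 2i (adjusted p = 0.0017) and by 0.78 in EG 2is (adjusted p = 0.0173), while its difference in ES 2i was −0.38 (adjusted p = 0.188). It was called higher in EG 2i than in ES 2i (1.09, adjusted p = 0.0233) and in the difference of responses (1.51, adjusted p = 0.0232). Other listed genes were called in that difference too, Nefh, Elavl3 and Neurog1 higher and Aldh1l1 lower. Each of these calls ended under several alternatives, among them batch 1 arrays only for the difference of responses. The EG 2is call of Zic2 was lost when EG 2is line 1, EG FCS line 3 or EG FCS line 4 was left out (adjusted p = 0.061 to 0.0681) and with the groups compared alone (adjusted p = 0.0727). The Zic2 differences with the feeder term were −0.23 in EG 2i (adjusted p = 0.749) and −0.57 in EG 2is (adjusted p = 0.301), neither called and both of the other sign, and −1.68 in ES 2i, which was called (adjusted p = 0.00108). With it Otx2 was called lower in all 3 (−3.29, −2.79 and −2.42, adjusted p = 0.00141, 0.00391 and 0.00631).

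Genes of progenitor structure and Notch signalling numbered 16, of which 4 rose and 3 fell in EG 2i, 3 rose and 3 fell in EG 2is, and 2 rose and 8 fell in ES 2i. The Notch ligand gene Dll1 fell in all 3 comparisons, with differences of −1.84 in EG 2i (SE 0.30, adjusted p = 1.45e-04), −1.92 in EG 2is (adjusted p = 5.24e-05) and −1.82 in ES 2i samples (SE 0.25, adjusted p = 1.6e-05). It was above the background level in 1 of 4 EG 2i lines and in 0 EG 2is and ES 2i arrays, so in these 2 groups only a bound holds, at least 3.17-fold lower in EG 2is and at least 3.02-fold lower in ES 2i than in serum. Hes1, a Notch-responsive repressor of neurogenesis, rose by 1.31, 1.37 and 0.94 in the same 3 comparisons (adjusted p = 6.14e-05, 1.91e-05 and 1.89e-04). Cdh2, the neural cadherin, fell by 0.81 in ES 2i (adjusted p = 1.48e-04) but not within batch 1 alone (−0.38, adjusted p = 0.129).

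Of 19 measured proneural and neuronal differentiation factors, 3 rose and 2 fell in EG 2i, 2 rose and 2 fell in EG 2is, and 1 rose and 5 fell in ES 2i. Insm1, a zinc-finger factor of newborn neurons and endocrine cells, fell in all 3, with −1.43, −1.61 and −1.79 in EG 2i, EG 2is and ES 2i (adjusted p = 8.39e-04, 1.67e-04 and 9.35e-06). Neurod1, a proneural factor, fell likewise, with −1.43, −1.51 and −1.34 (adjusted p = 1.26e-04, 3.75e-05 and 2.42e-05). No ES 2i array was above the background level for Neurod1 (mean 4.75), so it was at least 2.31-fold lower there than in ES FCS samples.

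Of 32 genes of neuron structure and the synapse, 2 rose and 12 fell in EG 2i, 2 rose and 13 fell in EG 2is, and 1 rose and 14 fell in ES 2i. The median differences of this list were −0.20, −0.19 and −0.33, beside 0.01, −0.01 and 0 over all genes tested. Among the genes named from it were Crmp1, which acts in axon guidance and fell in all 3 (−2.59, −2.78 and −2.58), and Ina, the neuronal filament alpha-internexin, which also fell (−2.57, −2.75 and −2.88, adjusted p = 5.62e-08, 8.43e-09 and 5.42e-10). Gap43, a growth-cone protein, fell in each (−1.07, −1.27 and −0.97, adjusted p = 2.22e-04, 2.22e-05 and 7e-05). Nefm, the medium neurofilament, rose by 1.32 in EG 2i (adjusted p = 0.01) and 1.22 in EG 2is (adjusted p = 0.0116), and both calls ended without EG FCS line 1 (adjusted p = 0.0572 and 0.0544) and with the feeder term (1.55 and 1.46, adjusted p = 0.187 and 0.205). The EG 2i call of Nefm also ended with the groups compared alone (1.14, adjusted p = 0.0569).

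**Figure D3:**
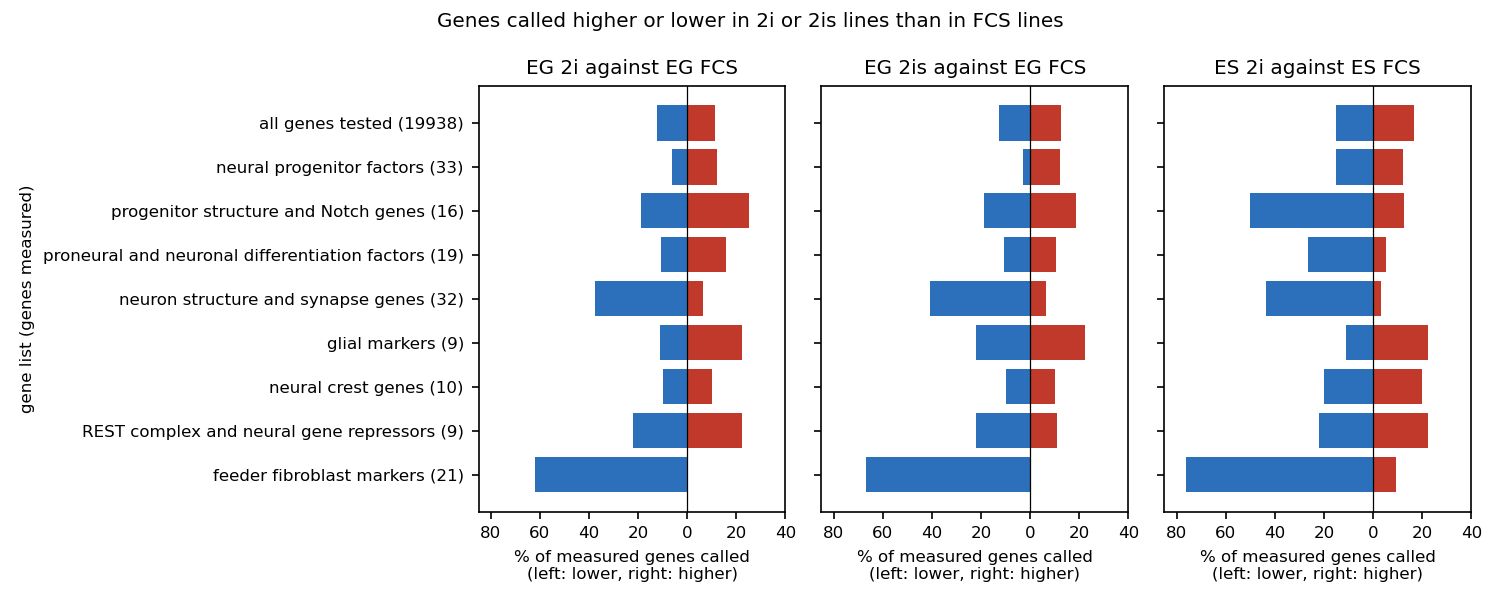
Percent of the measured genes of each neural list (rows) that were called higher or lower against serum (horizontal axis) in EG 2i, EG 2is and ES 2i, with the same shares over all 19938 genes. Genes of neuron structure and the synapse were called lower in 12, 13 and 14 of 32 cases, and the feeder fibroblast markers in 13, 14 and 16 of 21.

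Close relatives of the 6 genes were counted by family. Of 9 Pax genes only Pax6 was called in each of the 3 culture comparisons. Of the 3 SoxB1 factors, to which Sox1 belongs, 0 were called in EG lines, and Sox3 fell by 0.64 in ES 2i (adjusted p = 0.00889; −0.73 and adjusted p = 0.178 within batch 1). Of 4 measured Zic genes 1 rose in EG 2i, 1 rose and 1 fell in EG 2is, and 1 fell in ES 2i, where Zic5 fell by 1.07 (adjusted p = 0.00141; −0.91 and adjusted p = 0.0916 within batch 2). Of 7 beta-tubulins Tubb2b rose by 0.36 in EG 2i, 0.31 in EG 2is and 0.51 in ES 2i (adjusted p = 0.00641, 0.0126 and 3.52e-05), both EG calls ending without EG FCS line 1 (adjusted p = 0.062 and 0.0883). Tubb4a fell by 0.38 in ES 2i (adjusted p = 0.00275), with 0 ES 2i arrays above the background level, and not within batch 1 (−0.10, adjusted p = 0.698) or with the feeder term (−0.53, adjusted p = 0.083). Of 10 microtubule-associated protein genes 3 fell in EG 2i, 2 in EG 2is and 4 in ES 2i, among them Map1b (−1.06, −1.04 and −1.07; −0.72 and adjusted p = 0.0885 within ES batch 2), and Map4, a widely expressed one, rose by 0.46, 0.69 and 0.47 (adjusted p = 0.00102, 9.85e-06 and 1.15e-04). Of 9 neural intermediate filament genes, the family of Nes, 1 rose and 2 fell in EG 2i, 1 rose and 3 fell in EG 2is, and 0 rose and 4 fell in ES 2i, with median differences of 0.07, −0.10 and −0.46. Prph, peripherin, fell in each (−0.67, −0.72 and −0.78, adjusted p = 0.00145, 4.5e-04 and 4.22e-05).

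Of 7 pluripotency genes 3 rose in EG 2i, 3 in EG 2is and 2 in ES 2i, and 0 fell. The EG 2i calls (Tfcp2l1, Nanog and Esrrb) ended without EG FCS line 1 (adjusted p = 0.0814, 0.052 and 0.326). The EG 2is calls of Nanog and Esrrb also ended without that line (adjusted p = 0.0545 and 0.213). Both ES 2i calls (Tfcp2l1 and Nanog) ended with batch 1 arrays only (adjusted p = 0.0555 and 0.166). Markers of other cells that the cultures could hold were read in the same way. Of 9 measured glial markers 2 rose and 1 fell in EG 2i, 2 rose and 2 fell in EG 2is, and 2 rose and 1 fell in ES 2i. Aldh1l1, an enzyme of folate metabolism used as an astrocyte marker, rose by 1.68, 2.91 and 3.00 (adjusted p = 1.73e-05, 1.2e-08 and 1.05e-09), and the glutamate transporter Slc1a3 fell (−1.22, −1.32 and −1.58). Of 10 neural crest genes 1 rose and 1 fell in EG 2i and in EG 2is, and 2 rose and 2 fell in ES 2i. Some markers, picked by hand, had low group means. These were 4.63 to 4.80 for astrocytic Gfap, 4.93 to 5.04 for Dcx of young neurons and 5.04 to 5.18 for the glial and crest factor Sox10. They do not stand for their lists, on which other markers rose, as given above.

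Rest, the repressor of neuronal genes in other cells, read 10.09, 10.09, 10.29 and 10.36 in EG 2i and 10.36, 10.34, 10.17 and 10.25 in EG 2is lines, against 10.41, 10.56, 10.53 and 10.56 in EG FCS lines. It read 10.31, 10.32, 10.23, 10.15 and 10.22 in ES 2i samples, against 10.25, 10.62, 10.52, 10.60 and 10.62 in ES FCS samples. Both EG groups in 2i lay below every EG FCS line, while the ES groups overlapped. Rest fell by 0.24 in EG 2i (adjusted p = 0.0236), by 0.20 in EG 2is (adjusted p = 0.0448) and by 0.27 in ES 2i (adjusted p = 0.0024). The EG calls ended under several alternatives, among them the groups compared alone (adjusted p = 0.111 in EG 2i and 0.0521 in EG 2is). The EG 2i call also ended without EG FCS line 1 (0.0651), EG 2i line 1 (0.0574) or EG 2i line 2 (0.0618), and the EG 2is call without any 1 of the 8 lines compared (0.0606 to 0.0965). In batch 1 alone the ES difference was −0.12 (adjusted p = 0.524). All 3 calls of Rest ended with the feeder term (−0.33, −0.30 and −0.36, adjusted p = 0.174, 0.226 and 0.0941). Of 9 genes of the REST complex and other neural gene repressors, Rest included, 2 rose and 2 fell in EG 2i. The list had 1 rise and 2 falls in EG 2is, and 2 rises and 2 falls in ES 2i. Its median differences were −0.08, 0.02 and −0.01. The Rest cofactor gene Rcor2 fell in the 3 comparisons (−0.58, −0.58 and −0.60), although not within ES batch 1 alone (−0.43, adjusted p = 0.151). Ctdsp2, of the same list, rose in the 3 (0.58, 0.67 and 0.58, adjusted p = 0.004, 7.61e-04 and 6.28e-04).

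Feeder markers were lower in all 2i groups, and per the labels only serum cultures had a feeder layer. Of 21 feeder fibroblast markers 13 fell and 0 rose in EG 2i, 14 fell and 0 rose in EG 2is, and 16 fell and 2 rose in ES 2i, with median differences of −0.43, −0.50 and −0.55. The largest falls of the list in all 3 were those of Acta2, smooth muscle actin (−4.5, −4.52 and −4.05), and Thbs1, a matrix glycoprotein (−4.24, −4.37 and −4.28). Of the 21 genes, 15 had a group mean above background in EG 2i, 13 in EG 2is, 13 in ES 2i, 19 in EG FCS and 20 in ES FCS. Whether their signal came from feeder cells or from the lines themselves was not tested. The feeder term is therefore not a measure of feeder content alone.

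Within the serum groups the 2 values did not run together in every sample. EG FCS line 4 had the highest feeder level (6.93) and the highest Pax6 (6.21) of its group, and the samples numbered 2 had the lowest feeder level (6.13 in EG, 6.15 in ES) and the lowest Pax6 (5.79 and 5.94). ES FCS samples 5 and 4, with the highest Pax6 (6.73 and 6.45), had feeder levels of 6.36 and 6.38, below the 6.88 of sample 1.

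With the feeder term, 14.9%, 16.5% and 18.3% of all genes were called in EG 2i, EG 2is and ES 2i. Of 32 genes of neuron structure and the synapse, 2 were higher and 8 lower in EG 2i. In EG 2is 2 were higher and 9 lower, and in ES 2i 2 were higher and 10 lower. The medians of this list were −0.35, −0.39 and −0.38, and the median over all genes is not given for that fit. The 33 progenitor transcription factors numbered 1 higher and 3 lower in both EG comparisons and 2 higher and 5 lower in ES 2i. The 16 genes of progenitor structure and Notch signalling numbered 1 higher and 3 lower in both EG comparisons and 1 higher and 4 lower in ES 2i. Among 19 proneural factors 1 was higher and 2 lower in both EG comparisons, and 0 were higher and 2 lower in ES 2i. Counts of progenitor and proneural factors were near the shares over all genes and were read as nothing particular to them. The calls given above for En2, Dll1, Hes1, Insm1, Neurod1, Crmp1 and Ina held with that term in all 3 comparisons. So did those of Gap43, Tubb2b, Map1b, Map4, Prph, Rcor2 and Ctdsp2, and those of Cdh2 and Sox3 held in ES 2i. Each of these differences was larger in size with it, for example −3.68, −3.74 and −3.58 for Dll1, −4.57, −4.75 and −4.48 for Crmp1, and −2.55, −2.52 and −2.49 for Map1b. These sizes extend the feeder slope over levels that serum and 2i arrays do not share. Taken from the Dll1 serum means of 6.55 (EG FCS) and 6.48 (ES FCS), they would end below 3.63, the lowest value on any array. They were therefore not read as larger falls. Zic5 was called lower in all 3 with it (−1.63, −2.04 and −2.52, adjusted p = 0.0105, 0.00168 and 1.47e-04).

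**Figure D4:**
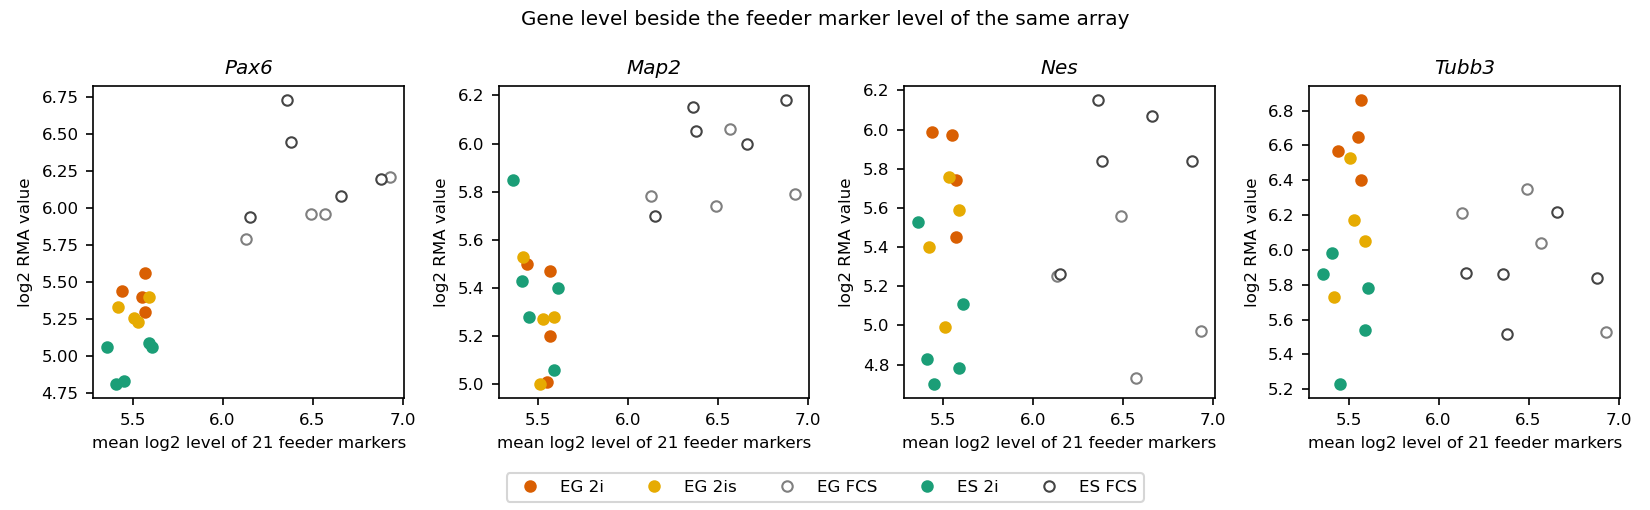
Levels of Pax6, Map2, Nes and Tubb3 (vertical axes, log2 RMA, 1 panel each) beside the mean log2 level of 21 feeder fibroblast markers (horizontal axis) in each of the 22 arrays, coloured by group. The 2i groups sit between 5.36 and 5.61 on the feeder axis and the serum groups between 6.13 and 6.93.

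Genes whose levels ran most like each member over the 22 arrays are given as a description, since the arrays share their culture groups. For Pax6 they were Calml4 (r = 0.958), Actc1, cardiac actin (0.941), and Adamts1, a matrix metalloprotease (0.939). For Map2 they were Nexn, an actin-binding protein (0.928), Prdm1, a regulator of germ cell fate (0.907), and Zdhhc13 (0.896). Nes was closest to the Wnt receptor Fzd6 (0.839), Hnrnpu (0.799) and the hedgehog effector Gli3 (0.774), and Tubb3 to Sfmbt1 (0.799), Cebpb (0.768) and D1Pas1 (0.763). Values for Sox1 and Zic1 were lower, with Cyp11a1 (0.699), Dyrk3 (0.679) and Rpl26 (0.659) for Sox1 and Tbc1d30 (0.725), Olfr1377 (0.718) and Calm4 (0.694) for Zic1. Among the members themselves Pax6 and Map2 had r = 0.77, and the other pairs lay between −0.30 and 0.45.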

How the data were processed

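The authors deposited log2 expression values made with RMA, each for 1 probe set on 1 array. Per the submitters' processing notes, Affymetrix Expression Console, RMA and limma were used. Versions are not given in the sources used here. The RMA method subtracts background, normalizes by quantiles and summarizes probes, and it compresses differences near background. Of 28853 probe sets, 21789 had a single gene symbol in the platform annotation, 1621 several and 5443 none. Where a gene had several probe sets, the one with the highest mean was kept, which left 19938 genes and set aside 1851 probe sets. No arrays were identical (0 pairs), and arrays of 1 group correlated at 0.982 to 0.998.

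limma 3.58.1 (R 4.3.3) fitted the 22 arrays together through lmFit and eBayes, and the model had terms for group, labelled batch and labelled sex. All adjusted p-values are two-sided, from limma, and Benjamini-Hochberg adjusted over 19938 genes. EG lines were all in batch 1, so the batch term rests on ES samples. Array number limits precision, since no counts exist. The fit was tested on simulated arrays. Python 3.11.15, pandas 2.3.3 and matplotlib 3.10.9 handled promoter windows and figures. The series text speaks of lines and each group holds both sexes, but nothing more is said of how cultures were kept apart. The p-values reflect only how these samples varied.

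The 6 genes and all lists were chosen with earlier results of these data known. From each other list the 4 called genes with the largest difference per comparison could be named. Rest, Pou5f1, Sox2 and Eif2s3y were always named, and other names were given with the values needed to follow a named gene across comparisons. Gfap, Dcx and Sox10 were picked by hand outside these rules. For likeness, the 3 described genes with the highest Pearson correlation over all arrays were taken. Alternatives changed the scaling, the filter, the covariates, the arrays fitted and the prior, and left out each array in turn.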

Additional observations from a re-analysis of the deposited data

Results flagged for a closer look

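Nes differed between EG and ES lines in its response to 2i. The fitted difference of responses was 1.34 (EG 2i minus EG FCS, less ES 2i minus ES FCS, adjusted p = 0.0144 by limma). It was positive under all 29 alternatives run (1.07 to 1.5), and called in 27 of them.

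Pax6 also differed between the responses, by 0.77 (adjusted p = 0.0402), and fell in both kinds of line. Its value lay between 0.43 and 0.90 over 29 alternatives and was called in 14.

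Map2 in EG FCS line 3 read 6.06, far from the 5.74, 5.78 and 5.79 of the other EG FCS lines. It was the only sample to stand apart by Dixon's limit among 30 groups of member values. Chance gives about 1 such sample in 20 groups, so 1 among 30 groups is no more than chance gives.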

How the results depend on the processing

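Over the alternatives run, 1120 values of the 6 genes kept their side of the threshold, 39 lost a call, 5 gained one and 0 called values changed sign. The fall of Pax6 and of Map2 in the 3 culture comparisons held under all but 1 of the alternatives run. The feeder term, added after the data were seen, ended most of these calls (members called 0 in EG 2i, 0 in EG 2is and 1 in ES 2i, against 2, 3 and 3; all genes 2980, 3282 and 3657, against 4764, 5108 and 6298). The feeder level and culture separate the same arrays, which widens the errors.

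Without the sex term 4 members were called in EG 2i against EG FCS, and 4 genes (of 9) in EG 2is against ES 2i. Without the batch term 6 genes were called in EG FCS against ES FCS (of 2), 1758 in EG 2i against ES 2i (of 742) and 33 in EG 2is against ES 2i. With batch 1 arrays only, 2460 genes were called in ES 2i against ES FCS, 1 in EG FCS against ES FCS, 201 in EG 2i against ES 2i (1 member), 0 in the difference of responses (0 members; 287 genes and 2 members in the full fit) and 25 for sex (of 721), and batch 2 gave 241 for sex. Fitting only the groups compared gave 1 gene in EG 2i against EG 2is (of 0), 1 in EG FCS against ES FCS, 15 in EG 2i against ES 2i (0 members), 0 in EG 2is against ES 2i and 1 member in the difference of responses. Normalizing by quantiles again left 1 member in the difference of responses, and centring arrays gave 469 genes there. Centring also moved the share of calls that were higher to 16.4% (against 32.3%) in EG 2i against ES 2i, 20.9% (against 39.4%) in the difference and 74.2% (against 63.8%) for sex. With EG 2is in place of EG 2i lines, the difference had 0 members and 6 genes called (0.0301%). The cause of these changes was not tested. Fits of batch and group subsets also held fewer arrays, and the part played by that was not tested either.

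With the replicate number as a block within EG and within ES, 1 gene was called in EG 2i against EG 2is, and 82 genes and 1 member in the difference of responses. With the replicate number as a block across all groups, 471 genes were called in EG 2i against ES 2i. Same-numbered ES FCS and ES 2i samples have the same labelled sex and batch, so they may come from the same lines. Their deviations correlated at −0.01 to 0.24, and those of EG pairs at −0.56 to 0.32. Such low values cannot exclude shared lines. The main fit did not pair samples by number, so its ES 2i against ES FCS p-values leave out any such pairing.

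Leaving out 1 array gave 0 to 2 members and 301 to 872 genes in EG 2i against ES 2i, 1 to 2 members and 110 to 390 genes in the difference, 0 to 1 members and 268 to 1204 genes for sex, 1 to 43 genes in EG 2is against ES 2i and 2 to 4 in EG FCS against ES FCS. No member went past 6.86 in any array, and Pax6, Nes and Zic1 were not above the background level in some arrays. This limits what small differences can show.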
